A study of Mus musculus with 8 samples.

Results

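Transporters of the ATP-binding cassette (ABC) family were examined in RNA-Seq data from the kidney cortex of aged and young mice. The members were taken by symbol, as every gene named Abc, a subfamily letter from a to g, a number and at most 1 further letter. This gave 50 of the 22609 genes in the count table. Of these, 39 reached 10 counts in 4 or more of the 8 libraries and entered the test, with 12 of 16 members of subfamily A, 8 of 10 of B, 8 of 10 of C, all 4 of D, the only member of E, all 3 of F and 3 of 6 of G. ABC proteins whose symbols do not start with Abc were outside this rule and are given at the end.

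Both groups were male C57BL6 mice that received no treatment, with 1 library per mouse. The aged group held 4 mice of 30 months by the labels and the young group 4 mice of about 5 months, and the study's methods give a somewhat higher mean age for the aged mice. Read pairs on genes numbered 14820804 to 19018543 per aged mouse and 15152597 to 19821429 per young mouse. Levels are given as CPM, the usual depth-scaled count, with libraries scaled by the trimmed mean of M-values (TMM). A count of 3, taken as the detection floor, corresponded to 0.151 to 0.202 CPM before the TMM scaling. A member was called changed at an adjusted p below 0.05 in the quasi-likelihood test of edgeR, adjusted after Benjamini and Hochberg over all 13944 genes tested, together with a fold change above 1.5. The mouse labelled aged 1 (aged mouse 1, with the others numbered likewise) stood apart from the other 7 on the first principal component of all genes, at -71.5 against -16.3 to 2.26 in the other aged mice and 21.6 to 26.2 in the young mice. Values are therefore given mouse by mouse, in the order of the label numbers, where a result turns on them. In whole tissue, fewer cells of a type and less RNA per cell cannot be told apart.

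ABC proteins bind and hydrolyze ATP at paired nucleotide-binding domains, and most use that energy to move a substrate across a membrane. Subfamily A moves mainly lipids and sterols. Subfamilies B, C and G include the efflux pumps that carry drugs, conjugates, bile salts and organic anions, several of which sit on the brush border of the proximal tubule and secrete into urine. Subfamily D acts mostly in peroxisomes, and subfamilies E and F have no membrane domain and act in translation.

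The 5 members called changed are shown first by the stretch that codes for their first Walker A loop, the glycine-rich turn that holds the phosphates of ATP. The loop was found by its consensus in the coding sequence of every member except Abcg3 and Abcg8. Each stretch is read on the coding strand of the mm9 genome, and the capitals mark the 24 bases that code for the loop, with 15 flanking bases on each side. Abca1 lies at chr4:53089888-53090861 on the minus strand and spans exons 19 and 20. Abca3 lies at chr17:24521461-24521514 on the plus strand in exon 14. Abcb1a lies at chr5:8702192-8702245 and Abcb1b at chr5:8824512-8824565, both on the plus strand in exon 12. Abcc4 lies at chr14:119014527-119015623 on the minus strand and spans exons 10 and 11.
Abca1: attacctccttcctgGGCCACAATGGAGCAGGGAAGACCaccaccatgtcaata
Abca3: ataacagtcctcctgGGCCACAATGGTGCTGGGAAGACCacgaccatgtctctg
Abcb1a: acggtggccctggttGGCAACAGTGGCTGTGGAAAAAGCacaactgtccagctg
Abcb1b: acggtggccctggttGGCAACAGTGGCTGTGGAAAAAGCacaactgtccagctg
Abcc4: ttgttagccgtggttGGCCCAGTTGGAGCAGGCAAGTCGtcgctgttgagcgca

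The first loops of Abcb1a and Abcb1b had 0 mismatches over these 54 bases. Their second loops, both in exon 25, at chr5:8738803-8738856 and chr5:8853537-8853590, are shown because they differ at 2 of 54 positions, given as C4T and C30T with the base of Abcb1a first and positions counted from 1 at the 5′ end.
Abcb1a second loop: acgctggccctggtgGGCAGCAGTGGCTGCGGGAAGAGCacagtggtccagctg
Abcb1b second loop: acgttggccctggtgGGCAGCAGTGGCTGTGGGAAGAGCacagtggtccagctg
The coding sequences of the pair were 88.0% identical over 3822 aligned positions, with a longest identical run of 338 nt, and each was 75.2% (Abcb1a) or 73.9% (Abcb1b) identical to Abcb4. In all, 6.0% of the 100-nt windows of Abcb1a and 8.01% of those of Abcb1b matched another place in the genome at 98% identity or more. Spliced transcripts were searched against the genome, so windows that span an exon junction can be missed and the genome shares are lower bounds. Windows identical to a stretch of another member's transcript made up 7.72% for Abcb1a, 8.65% for Abcb1b and 0.235% for Abca3. Counts of the Abcb1a and Abcb1b pair are less certain than those of Abca1, Abca3 and Abcc4, for which the genome share was 0. The only member above the pair in genome share was Abcf2, at 10.9%.

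The 250 bases before the transcription start are shown for 3 of the called genes, Abca1, Abcb1b and Abcc4, because their levels moved with age and the stretch ends where the annotated mm9 gene begins. They come from RefSeq on build GRCm38.p6, which held a promoter for 38 members, and run 5′ to 3′ on the strand of the gene. The stretch listed for Abcb1a lies 92986 bases upstream of the gene start in mm9, and that of Abca3 reaches into the annotated gene, so neither is shown or compared. Abca1 is at chr4:53159896-53160145 (minus), Abcb1b at chr5:8797897-8798146 (plus) and Abcc4, at the more upstream of its 2 listed starts, at chr14:118706220-118706469 (minus). Capitals mark matches on either strand to the letters CCAAT (the CCAAT box), GGGCGG (the GC box), CACGTG (an E-box), AGGTCA (a nuclear receptor half-site), TATAAA and TGACNNNGC (the core of the antioxidant response element).
Abca1: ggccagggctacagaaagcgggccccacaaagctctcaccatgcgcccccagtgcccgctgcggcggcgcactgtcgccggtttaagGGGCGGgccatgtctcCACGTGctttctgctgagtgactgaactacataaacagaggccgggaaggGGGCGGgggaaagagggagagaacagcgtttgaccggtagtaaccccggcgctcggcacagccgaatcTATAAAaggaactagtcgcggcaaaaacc
Abcb1b: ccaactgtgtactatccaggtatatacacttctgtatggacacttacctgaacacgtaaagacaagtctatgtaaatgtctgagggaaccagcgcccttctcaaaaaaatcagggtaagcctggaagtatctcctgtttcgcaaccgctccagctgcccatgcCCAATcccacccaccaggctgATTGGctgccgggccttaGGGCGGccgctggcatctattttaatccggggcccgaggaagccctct
Abcc4: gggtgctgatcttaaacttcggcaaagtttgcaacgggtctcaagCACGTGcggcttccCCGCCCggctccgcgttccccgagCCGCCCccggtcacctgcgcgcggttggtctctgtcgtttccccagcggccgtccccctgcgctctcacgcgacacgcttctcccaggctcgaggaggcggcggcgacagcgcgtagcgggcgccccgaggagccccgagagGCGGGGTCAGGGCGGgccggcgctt

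The 3 stretches differed in the motifs they held. Abca1 held GGGCGG 2 times with 1 CACGTG and 1 TATAAA, Abcb1b held CCAAT 2 times and GGGCGG 1 time, and Abcc4 held GGGCGG 3 times with 1 CACGTG and 1 TGACNNNGC. Over the 45 stretches that RefSeq lists for members, some of which lie away from the annotated gene start, GGGCGG was found in 20 (44.4%, against 32.7% of all 32851 promoters), CCAAT in 13 (28.9%, against 33.8%), AGGTCA in 7 (15.6%, against 14.0%), CACGTG in 5 (11.1%, against 6.02%), TATAAA in 5 (11.1%, against 12.4%) and TGACNNNGC in 4 (8.89%, against 10.2%). These are matches of letters and not binding sites.

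Across the family, 5 of the 39 members tested were called changed (12.8%), where 2.06% of all genes tested were called. Abcb1a, Abcc4, Abcb1b and Abca1 rose, against a background of 1.17% called higher, and Abca3 fell, against a background of 0.889% called lower. Abca7 passed the adjusted p alone and missed the fold threshold, which made 6 members (15.4%) where the background was 2.95%. The groups did not overlap for 18 members (46.2%, background 18.9%), of which 12 were higher in every aged mouse (30.8%, background 8.85%) and 6 lower (15.4%, background 10%). The log2 fold change was above 0 for 27 members and below 0 for 12 (69.2% above 0, background 54.1%), with a median of 0.29 where the median over all genes was 0.03. The members were chosen with results of these data known, so these shares describe the family and are not a test of it.

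The call count changed with the mice included. With 1 aged mouse left out it ranged from 2 (without aged mouse 2 or 3) to 7 (without aged mouse 4), and it was 5 without aged mouse 1. It was 1 without young mouse 2 or 3 and 0 without young mouse 1 or 4. Calls over the whole table moved as well, from 287 with all mice to 444, 119, 115 and 733 without aged mouse 1, 2, 3 or 4. They were 8, 35, 14 and 12 without young mouse 1, 2, 3 or 4.

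**Figure D1:**
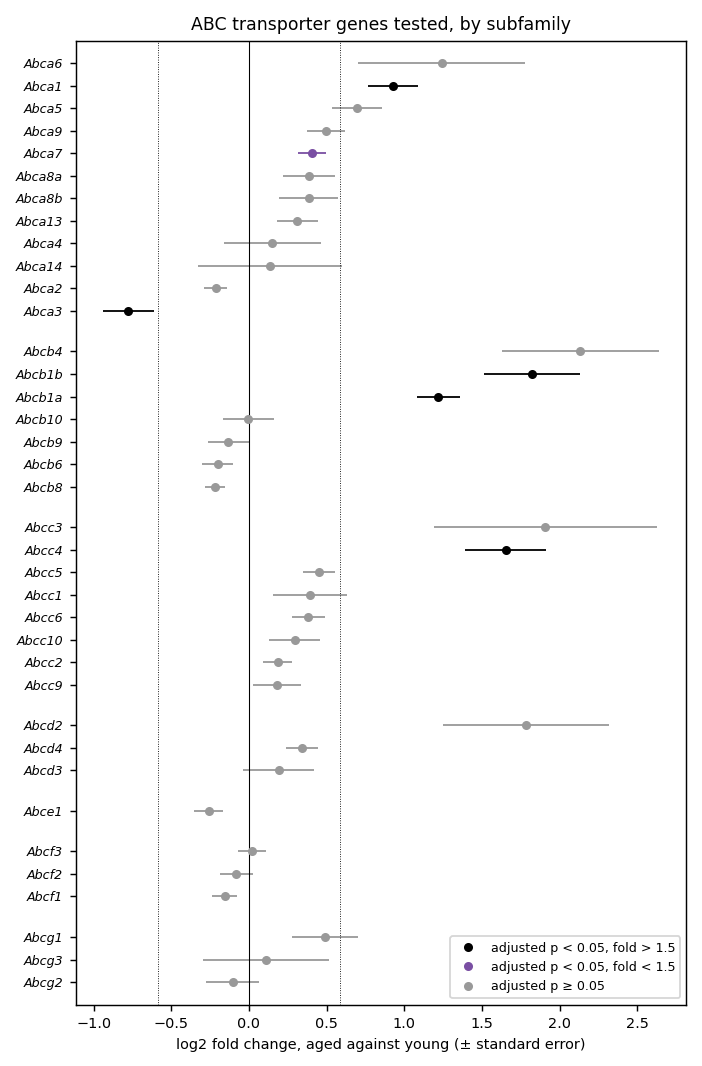
Log2 fold change with age for 37 of the 39 members tested, grouped by subfamily, with bars of 1 SE and dotted lines at a fold change of 1.5. The 5 members called changed are black, Abca7 (adjusted p below 0.05 but a smaller fold) is purple, and all 8 members of subfamily C lie to the right of 0.

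Subfamily A held 2 of the calls, in opposite directions. Its median log2 fold change was 0.38, and 10 of its 12 tested members lay above 0. Abca1, which exports cholesterol and phospholipid to lipid-poor apolipoprotein A-I, rose. It lies on the minus strand at chr4:53043659-53172767 with 50 exons. Abca1 was at 130.4, 141, 168 and 160.2 CPM in the aged mice and at 61.3, 67.5, 84.4 and 102 CPM in the young mice. Every aged mouse was above every young mouse, with group means of 149.8 ± 17.3 and 78.8 ± 18.3 CPM (SD, n = 4). The log2 fold change was 0.93 (SE 0.16), a 1.90-fold rise (edgeR quasi-likelihood test, adjusted p = 0.0327). The call was lost without aged mouse 2 (adjusted p = 0.0563) or aged mouse 3 (0.0637), and without young mouse 1 (0.0899), 2 (0.0934), 3 (0.0904) or 4 (0.0594), with log2 fold changes of 0.82 to 1.08 over all alternatives.

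Abca3, the lipid transporter that fills the lamellar bodies of lung surfactant cells, was the only member called lower. It lies on the plus strand at chr17:24488895-24547146 with 33 exons. Abca3 was at 579, 726, 629 and 825 CPM in the aged mice and at 907, 1162, 1319.6 and 1335 CPM in the young mice. The highest aged mouse was below the lowest young mouse, with means of 689.7 ± 109 and 1181 ± 199 CPM (SD, n = 4). The log2 fold change was -0.78 (SE 0.16), a level 1.71-fold lower (edgeR quasi-likelihood test, adjusted p = 0.0431). Abca3 was also one of the most abundant members, rank 2 of 39 per kilobase of transcript in the young mice at 182 ± 30.7 CPM per kb and rank 4 in the aged mice at 107 ± 16.8 CPM per kb. The call was lost without aged mouse 2 (adjusted p = 0.0691) or aged mouse 3 (0.0821), and without young mouse 1 (0.0895), 2 (0.105), 3 (0.118) or 4 (0.132).

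Abca7, a phospholipid exporter closely related to Abca1, was higher by a small and steady amount. It was at 30.6, 33.3, 38.1 and 33.1 CPM in the aged mice and at 25.4, 24.5, 27.5 and 24.7 CPM in the young mice. The groups did not overlap, and the log2 fold change was 0.40 (SE 0.09, 1.32-fold, edgeR quasi-likelihood test, adjusted p = 0.0483). The adjusted p exceeded 0.05 without aged mouse 2 (0.0737) or aged mouse 3 (0.0769), and without young mouse 1 (0.146), 2 (0.132), 3 (0.108) or 4 (0.147).

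Abca5, Abca6, Abca8a, Abca8b and Abca9 are neighbours that occupy 406 kb of chromosome 11 (chr11:109793504-110199030), and all 5 had log2 fold changes above 0, from 0.38 to 1.24, though none was called. Abca5, a lipid transporter of lysosomes and endosomes, was at 88.1, 52.4, 69.96 and 55.7 CPM in the aged mice and at 43.4, 41.0, 43.1 and 37.1 CPM in the young mice, with a log2 fold change of 0.69 (SE 0.16, adjusted p = 0.0529). Abca9 was at 40.5, 48.8, 42.8 and 36.2 CPM in the aged mice and at 29.1, 34.6, 25.5 and 30.1 CPM in the young mice. Its log2 fold change was 0.49 (SE 0.12, edgeR quasi-likelihood test, adjusted p = 0.0597). For both genes every aged mouse was above every young mouse. Abca6 had the largest fold of the 5 but also the widest spread, at 20.5, 9.82, 4.65 and 3.92 CPM in the aged mice and 2.04 to 5.92 CPM in the young mice (adjusted p = 0.190). Without aged mouse 1, its log2 fold change was 0.56 (SE 0.40, adjusted p = 0.407). Abca8a and Abca8b had log2 fold changes of 0.39 (SE 0.17, adjusted p = 0.186) and 0.38 (SE 0.19, adjusted p = 0.235).

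The other tested members of subfamily A were not called. Abca13, which encodes an exceptionally long protein, was abundant in both groups, at 1252 ± 123 CPM in the aged and 1008 ± 144 CPM in the young mice (log2 fold change 0.31, adjusted p = 0.181). Abca2, best known from myelin-forming cells, was at 87.7 ± 6.55 and 102 ± 3.67 CPM without overlap between the groups (log2 fold change -0.21, adjusted p = 0.128). Abca4, the retinal lipid flippase, and Abca14 were at 7.89 ± 2.84 and 0.707 ± 0.390 CPM in the aged mice, with adjusted p of 0.785 and 0.872.

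**Figure D2:**
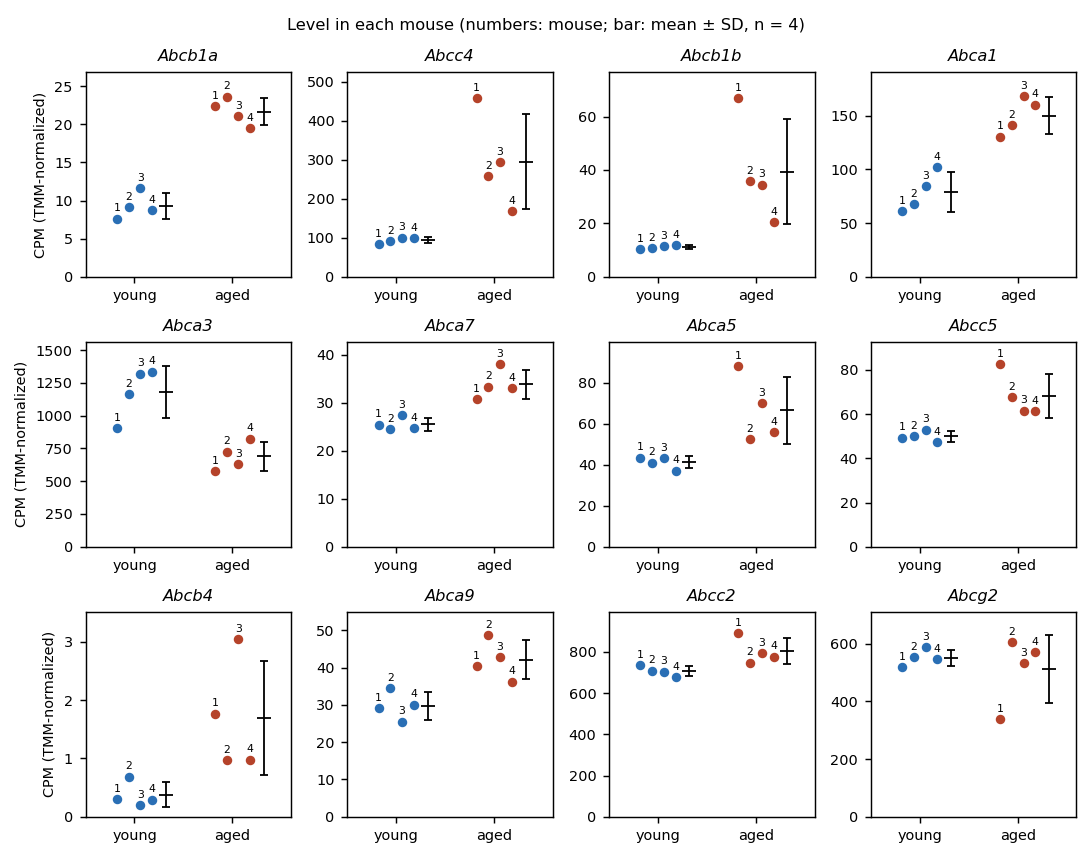
CPM of 12 members in each mouse, with a separate linear axis for each gene, 4 aged and 4 young mice as points and the mean with 1 SD as a bar. Of the 12, only Abcg2 shows overlap between the groups, and aged mouse 1 holds the highest value for Abcc4 (458 CPM) and Abcb1b (66.9 CPM).

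In subfamily B both genes for P-glycoprotein rose. P-glycoprotein pumps hydrophobic drugs out of cells and in rodents is encoded by the neighbouring genes Abcb1a and Abcb1b. Abcb1a lies on the plus strand at chr5:8660077-8748575 with 28 exons. It was at 22.4, 23.6, 21.1 and 19.5 CPM in the aged mice and at 7.64, 9.15, 11.6 and 8.74 CPM in the young mice. The lowest aged mouse was well above the highest young mouse, and the spread was small in both groups, with means of 21.6 ± 1.79 and 9.29 ± 1.68 CPM (SD, n = 4). Abcb1a ranked 11 by p among the 13944 genes tested, with a log2 fold change of 1.22 (SE 0.14), a 2.33-fold rise (edgeR quasi-likelihood test, adjusted p = 0.0120). Its call held under 14 of 16 alternatives and was lost without young mouse 1 (adjusted p = 0.0511) or young mouse 4 (0.0594).

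Abcb1b lies on the plus strand at chr5:8798147-8866314 with 28 exons. It was at 66.9, 35.9, 34.5 and 20.4 CPM in the aged mice and at 10.4, 10.8, 11.5 and 11.9 CPM in the young mice. The young mice lay close together while the aged mice ranged widely, and the groups did not overlap. Abcb1b rose 3.53-fold, with means of 39.4 ± 19.6 and 11.2 ± 0.696 CPM (SD, n = 4), a log2 fold change of 1.82 (SE 0.31) and an adjusted p of 0.0311 (edgeR quasi-likelihood test). Without aged mouse 1 it was 1.44 (SE 0.19, adjusted p = 0.0113). The call was lost without aged mouse 2 (adjusted p = 0.0545) or aged mouse 3 (0.0552), and without young mouse 1 (0.105), 2 (0.0861), 3 (0.0904) or 4 (0.103).

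The balance between the P-glycoprotein genes was compared per kilobase of transcript, a ratio chosen after the values were seen. Abcb1b per Abcb1a was 3.44, 1.75, 1.88 and 1.21 in the aged mice, against 1.56, 1.36, 1.14 and 1.57 in the young mice. The groups overlapped, and the means of 2.07 ± 0.958 and 1.41 ± 0.204 (SD, n = 4) were not distinguishable (two-sided exact permutation test, p = 0.229).

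Abcb4, the third gene of this cluster (chr5:8660077-8959225, 299 kb), moves phosphatidylcholine into bile and was barely detected in kidney cortex. It had 36, 15, 57 and 18 counts in the aged mice and 5, 13, 3 and 5 counts in the young mice, which is 1.77, 0.976, 3.05 and 0.981 CPM against 0.308, 0.688, 0.204 and 0.295 CPM. Every aged mouse was above every young mouse, but the gene passed the 10-count filter only through the aged group. Its log2 fold change of 2.13 (SE 0.50) was the largest in the family and missed the threshold (edgeR quasi-likelihood test, adjusted p = 0.0564).

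The remaining tested members of subfamily B work inside organelles, and none was called. Abcb8, of the mitochondrial inner membrane, was at 44.6 ± 1.66 CPM in the aged and 51.8 ± 1.32 CPM in the young mice, without overlap (log2 fold change -0.22, SE 0.06, adjusted p = 0.0900). Abcb10, tied to heme synthesis, was at 42.6 ± 9.78 and 42.7 ± 3.29 CPM (adjusted p = 0.990). Abcb6 and Abcb9 had log2 fold changes of -0.20 (adjusted p = 0.235) and -0.13 (adjusted p = 0.549). Aged mouse 1 was the lowest of all 8 mice for Abcb10 (28.1 CPM). The median over subfamily B was -0.07, with 3 members above 0 and 5 below.

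All 8 tested members of subfamily C had log2 fold changes above 0, with a median of 0.39, and 1 of them was called. Abcc4 (MRP4), an efflux pump for organic anions and cyclic nucleotides on the brush border of the proximal tubule, rose. It lies on the minus strand at chr14:118881914-119105441 with 31 exons. Abcc4 was at 458, 257, 294 and 169 CPM in the aged mice and at 84.1, 91.5, 101 and 98.8 CPM in the young mice. Every aged mouse was above every young mouse, and the aged mice varied far more, with means of 295 ± 121 and 93.8 ± 7.54 CPM (SD, n = 4). The rise was 3.14-fold, with a log2 fold change of 1.65 (SE 0.26) and an adjusted p of 0.0255 (edgeR quasi-likelihood test). Per kilobase, Abcc4 moved from 16.4 ± 1.32 to 51.4 ± 21.1 CPM per kb, and from rank 13 of the 39 members in the young mice to rank 6 in the aged mice. Without aged mouse 1, which held the highest level, the log2 fold change was 1.36 (SE 0.17, adjusted p = 0.0103). The call was lost without aged mouse 3 (adjusted p = 0.0511), and without young mouse 1 (0.0896), 2 (0.0761), 3 (0.0871) or 4 (0.102).

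Abcc2 (MRP2), which shares the brush border and many substrates with Abcc4, did not pass the test. It was at 893, 748, 794 and 777 CPM in the aged mice and at 737, 709, 705 and 676 CPM in the young mice. The groups did not overlap, but the difference was small (1.14-fold, log2 fold change 0.18, SE 0.09, edgeR quasi-likelihood test, adjusted p = 0.241). Abcc5, an exporter of cyclic nucleotides and heme, was at 82.5, 67.6, 61.6 and 61.3 CPM in the aged mice and at 49.4, 49.9, 53.0 and 47.4 CPM in the young mice. Every aged mouse was above every young mouse, and Abcc5 narrowly missed the threshold (1.37-fold, log2 fold change 0.45, SE 0.11, adjusted p = 0.0548).

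Abcc6, whose loss causes ectopic calcification, was at 26.5 ± 3.10 CPM in the aged and 20.3 ± 1.67 CPM in the young mice, without overlap (log2 fold change 0.38, adjusted p = 0.0793). Abcc3 (MRP3), a basolateral exporter of conjugates, had a log2 fold change of 1.91 (SE 0.72, adjusted p = 0.144) that came largely from 1 mouse. It was at 29.4, 4.94, 2.78 and 4.74 CPM in the aged mice and at 2.22 to 3.95 CPM in the young mice, and without aged mouse 1 its log2 fold change was 0.57 (SE 0.28, adjusted p = 0.231). Abcc1 (MRP1), Abcc10 and Abcc9, the sulfonylurea receptor of vascular potassium channels, had log2 fold changes of 0.39 (adjusted p = 0.319), 0.29 (adjusted p = 0.286) and 0.18 (adjusted p = 0.487).

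No member of subfamilies D, E, F or G was called. In subfamily D, Abcd3, the abundant peroxisomal membrane transporter of fatty acids and bile acid precursors, was at 935, 397, 572 and 580.0 CPM in the aged mice and at 549, 486, 601 and 539.8 CPM in the young mice. The aged mice spanned the young range on both sides, and the log2 fold change was 0.19 (SE 0.23, adjusted p = 0.616), or -0.07 (SE 0.14, adjusted p = 0.776) without aged mouse 1. Abcd2, a peroxisomal transporter of very long chain fatty acids, was at 5.35, 3.12, 0.695 and 3.43 CPM in the aged mice and at 0.925, 0.740, 0.680 and 1.30 CPM in the young mice. Aged mouse 3 fell within the young range, and the log2 fold change was 1.78 (SE 0.53, adjusted p = 0.0921). Abcd4, which handles cobalamin in lysosomes, was higher in every aged mouse than in any young mouse and did not pass the test (log2 fold change 0.34, adjusted p = 0.0958).

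Abce1, which recycles ribosomes, was at 116 ± 12.6 CPM in the aged and 139 ± 7.0 CPM in the young mice (log2 fold change -0.26, adjusted p = 0.131). The translation factors Abcf1, Abcf2 and Abcf3 had log2 fold changes of -0.16, -0.08 and 0.02, with adjusted p of 0.247 or more.

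In subfamily G, Abcg2 (BCRP), which exports urate, drugs and sulfate conjugates at the brush border, was the most abundant member per kilobase in both groups, at 206 ± 47.7 CPM per kb in the aged and 221 ± 11.3 CPM per kb in the young mice. It was at 339.7, 607, 533 and 569.6 CPM in the aged mice and at 519, 553, 587 and 545 CPM in the young mice. Apart from aged mouse 1, which was lowest, the groups overlapped (log2 fold change -0.11, SE 0.17, edgeR quasi-likelihood test, adjusted p = 0.716). Abcg1, which loads cholesterol onto high-density lipoprotein, was at 22.0, 11.8, 15.6 and 13.2 CPM in the aged mice and at 12.02, 10.3, 8.70 and 13.6 CPM in the young mice. The groups overlapped, and the log2 fold change was 0.49 (SE 0.21, adjusted p = 0.191). Whether it differed from Abca1, the other main exporter of cellular cholesterol, was not tested. Abcg3, a gene of rodents, was at 1.12 ± 0.555 and 1.03 ± 0.101 CPM (adjusted p = 0.882).

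**Figure D3:**
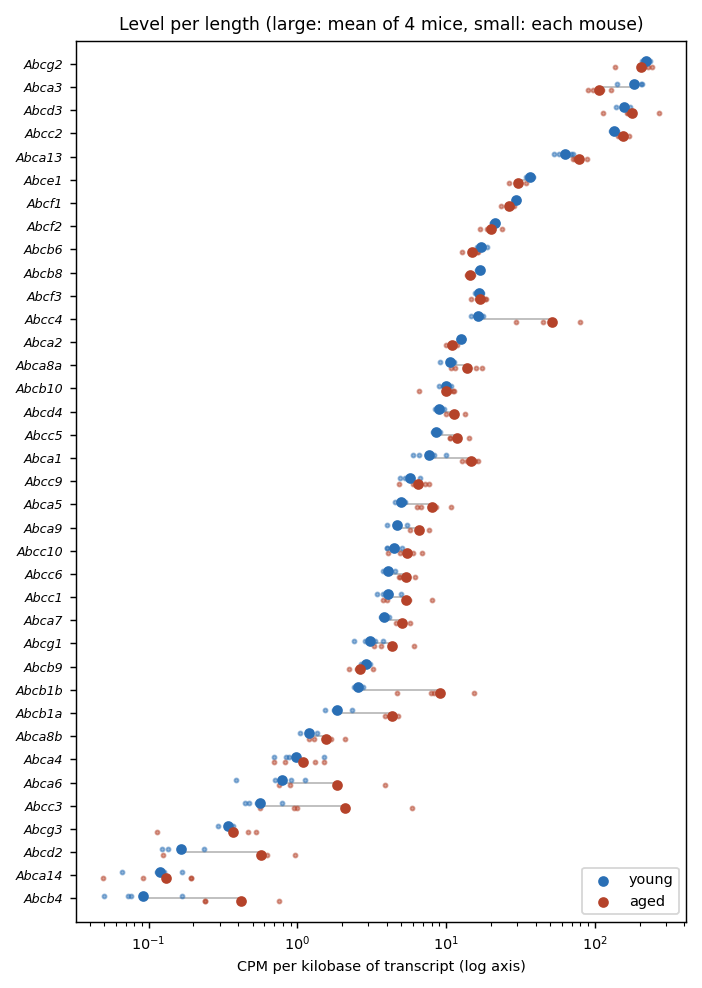
Level of 37 tested members in CPM per kilobase of its longest coding transcript, on a log axis, for the young and the aged mice. Abcg2 is highest in both groups (221 and 206 CPM per kb), and Abcc4 moves from 16.4 to 51.4 CPM per kb.

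Per kilobase, the leading members in the young mice were Abcg2 (221 CPM per kb), Abca3 (182), Abcd3 (156), Abcc2 (135) and Abca13 (63.0). Among the efflux pumps, Abcg2 and Abcc2 were at high levels in both groups and Abcc4 at a lower level, and whether their changes with age differed from each other was not tested. The P-glycoprotein genes were at lower levels than Abcg2, Abcc2 and Abcc4 in both groups. Abcb1a was at 1.86 CPM per kb and Abcb1b at 2.57 CPM per kb in the young mice, and at 4.33 and 9.07 CPM per kb in the aged mice.

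The 11 members that were not tested had few or no counts. Abca12, Abca15, Abcb5 and Abcc12 were at 0 in all 8 mice. Abca16, Abca17, Abcb11, Abcc8, Abcg4, Abcg5 and Abcg8 never exceeded 14 counts, reached by Abcc8 in aged mouse 1. Abcg5 and Abcg8, which together form the sterol exporter of gut and liver, had 2, 4, 2 and 4 and 2, 5, 2 and 2 counts in the aged mice, and 0, 2, 0 and 0 and 0, 1, 0 and 1 in the young mice, near the floor of 3 counts. On the other side of the filter, Abca14 and Abcb4 passed in 5 libraries and Abcg3 in 7, and the other 36 members passed in all 8.

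**Figure D4:**
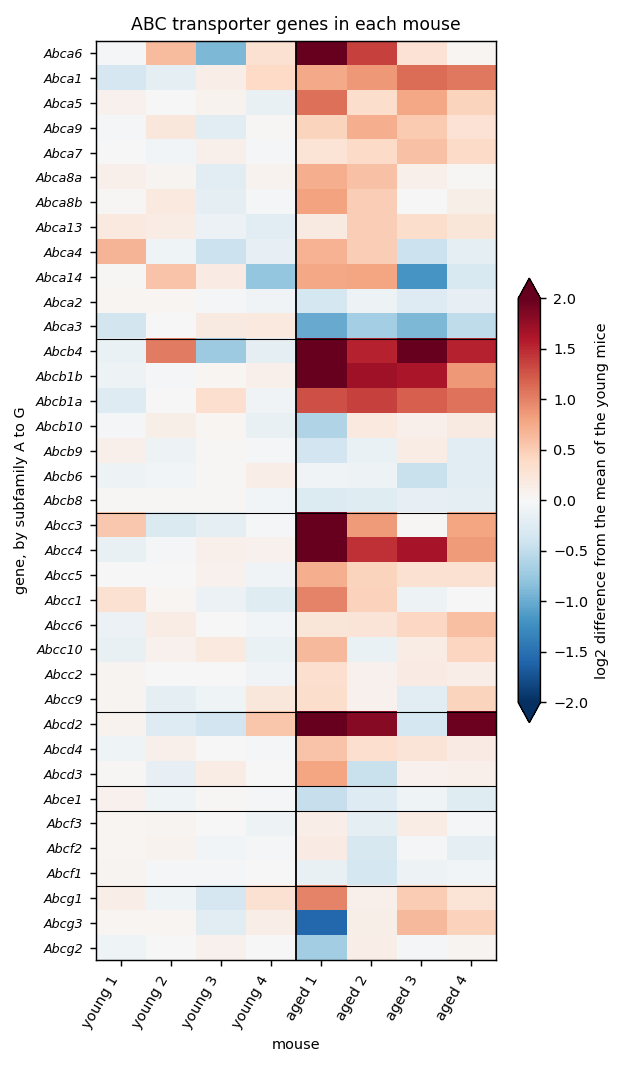
Log2 difference of 37 tested members in each mouse from the mean of the young mice, with colour capped at 2 in either direction and members grouped by subfamily. The column of aged mouse 1 holds the highest value of all 8 mice for 17 of them and the lowest for 8.

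Aged mouse 1 set much of the spread in the aged group. It was the highest of the aged mice for 18 members, the lowest for 14 and between the others for 7. Relative to the other aged mice averaged, its level was 7.08 for Abcc3, 3.34 for Abca6, 2.22 for Abcd2, 2.21 for Abcb1b, 1.91 for Abcc4 and 1.81 for Abcd3, and it was 0.596 for Abcg2 and 0.592 for Abcb10. The median log2 difference from the young mean over the 39 members was 0.45 in this mouse and 0.26, 0.11 and 0.14 in aged mice 2, 3 and 4. Without it the same 5 members were called, Abca5 and Abcc5 joined those past the adjusted p (adjusted p = 0.0338 and 0.0311), and the family median was 0.16. The summed level of 5 proximal tubule markers was 7279 CPM in this mouse, 16529 to 19146 CPM in the other aged mice and 16796 to 20817 CPM in the young mice. Lrp2 and Slc34a1 made up most of this sum, at 3862 and 2481 CPM in this mouse. Slc5a12 did not follow it, at 439 CPM in this mouse, within the young range of 374 to 567 CPM. In the other aged mice Slc5a12 was at 736 to 1065 CPM. Slc22a6 was at 372 to 1186 CPM in the aged and 1241 to 1484 CPM in the young mice, without a call. The summed level of 3 adipocyte markers was 116 CPM in aged mouse 1 and 3.63 to 24.6 CPM in the other aged mice, against 0.544 to 10.6 CPM in the young mice.

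Marker lists of other cell types were read across the groups as well, as summed CPM. Proximal tubule S3 markers were at 199 to 1136 CPM in the aged and 1062 to 1604 CPM in the young mice, distal convoluted tubule markers at 1223 to 1412 against 679 to 1220 CPM, and B and plasma cell markers at 32.8 to 98 against 6.91 to 15.3 CPM. Single genes carried the last 2 sums. In the distal tubule list Slc12a3 was at a mean of 1251 against 904 CPM while Pvalb was at 6.35 against 12.9 CPM, and neither was called. In the B and plasma cell list Igj was at a mean of 49.4 against 7.90 CPM, and Cd79a, Cd79b and Ms4a1 were each below 1 CPM on average with overlapping groups. The ranges of thick ascending limb (2102 to 3637 against 2945 to 5098), collecting duct (213 to 386 against 213 to 261), intercalated cell (125 to 200.1 against 163 to 206), podocyte (258 to 506 against 354 to 438), endothelium (324 to 501 against 394 to 426), smooth muscle and pericyte (142 to 251 against 201 to 245), fibroblast (105 to 238 against 92.6 to 131), macrophage (61.0 to 118 against 81.7 to 124) and T cell markers (2.51 to 3.51 against 1.16 to 2.77) overlapped. Adrenal cortex markers were near the floor, with Cyp11b1 at 0 in all mice, and both red cell markers were at 0. In these lists 2 genes were called, Igj higher (log2 fold change 2.65) and Csf1r lower (-1.0), where 2.06% of all genes tested were called. The part of these shifts in the values of Abcb1a, Abcb1b, Abcc4, Abca1 and Abca3 was not tested.

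Genes tied to ABC transporters by known biology were read in the same fit. None of the 3 ABC proteins with other symbols was called, namely the peptide transporter subunits Tap1 (log2 fold change 0.75, adjusted p = 0.106) and Tap2 (0.29, adjusted p = 0.215) and the chloride channel Cftr (-0.23, adjusted p = 0.719). Of 9 regulators 8 were tested and none was called, though Nr1h3, the liver X receptor alpha that activates Abca1 and Abcg1, passed the adjusted p alone. Nr1h3 was at 22.9, 30.4, 28.0 and 26.5 CPM in the aged mice and at 37.7, 36.8, 38.2 and 41.0 CPM in the young mice. Every aged mouse was below every young mouse (log2 fold change -0.51, SE 0.10, edgeR quasi-likelihood test, adjusted p = 0.0385), the opposite direction to Abca1. The other liver X receptor, Nr1h2, was at 64.3 ± 2.98 CPM in the aged and 63.2 ± 1.92 CPM in the young mice (log2 fold change 0.03, adjusted p = 0.817). A link of either receptor to the level of Abca1 was not tested. Nfe2l2, the factor of the antioxidant response, was at 137 ± 18.2 and 105 ± 4.94 CPM (log2 fold change 0.39, adjusted p = 0.0693).

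Of 10 partners and carriers, all of them tested, 1 was called, where 2.06% of all genes tested were called. Apoe, an apolipoprotein that accepts cholesterol exported by Abca1 and Abcg1, was at 636, 410.0, 389 and 179 CPM in the aged mice and at 103, 113, 94.9 and 84.1 CPM in the young mice. It rose 4.09-fold without overlap between the groups (log2 fold change 2.03, SE 0.32, edgeR quasi-likelihood test, adjusted p = 0.0267). The scaffold proteins of the brush border, Pdzk1 and Slc9a3r1, had log2 fold changes of -0.72 (adjusted p = 0.189) and -0.58 (adjusted p = 0.113). Kcnj11 and Kcnj8, channel partners of the sulfonylurea receptors, had log2 fold changes of -1.29 (adjusted p = 0.0861) and -0.62 (adjusted p = 0.209). Kcnj11 was at 0.196 to 0.763 CPM in the aged mice, near the floor at the low end, and at 1.09 to 1.65 CPM in the young mice. For Kcnj8 the groups overlapped, at means of 4.96 and 7.59 CPM.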

How the data were processed

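RNA-Seq was performed on kidney cortex of 4 aged and 4 young mice, with 1 library per mouse from stranded, ribosome-depleted RNA read as paired ends of 100 bp. By the submitters' processing notes and the study's methods, the authors used CASAVA 1.8.2, TopHat2, SAMtools and HTSeq, by strand, on RefSeq genes of mm9, and deposited raw read counts per gene without normalization. Versions other than that of CASAVA are not given in the sources used here. The 5 closing rows of each table hold no gene and entered no library size or test. Of all counts of a library, closing rows included, those on no gene were 20.0% to 29.9%. Those without a unique place were 34.3% to 39.1% and ambiguous ones at most 0.346%. These are shares of the counts listed and need not equal shares of read pairs. Pairs without a unique place were not assigned to a gene, which can lower the counts of near-identical genes.

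Counts were taken from the joint table, which differed from the tables per library in 0 values. They were analyzed in R 4.3.3 with edgeR 4.0.16 (quasi-likelihood test, TMM, filterByExpr at a minimum count of 10, Benjamini-Hochberg adjustment over 13944 genes). The SE was obtained from the log2 fold change and its F statistic. The floor of 3 counts covers counting error only. Transcript lengths, coordinates and coding sequences came from the GENCODE annotation of NCBIM37 (mm9), which gave 21627 of 22609 genes a length. RefSeq promoter stretches were placed in mm9 by exact match. Copies were sought with BLAST 2.17.0, and coding sequences were aligned with MAFFT 7.526. A single ratio was compared in Python 3.11.15 by exact permutation over 70 orders. The test was checked on simulated counts.

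The members, gene lists and tests were chosen with earlier results of these data known. Every member could be named, apart from 2 tested members that enter the counts and medians and are not reported here by name, and values of every mouse were to be given for members past the adjusted p, the 10 with the smallest p, and Abca1, Abcg1, Abcb1a, Abcb1b, Abcc2, Abcc4 and Abcg2. The alternatives were DESeq2 1.42.0 and limma-voom (limma 3.58.1) with sample quality weights, DESeq2 size factors or library size only in place of TMM, robust fitting, other filters, a replicate block, each mouse left out, a fold threshold of 1.2 and a minimum of 1 CPM per kb.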

Additional observations from a re-analysis of the deposited data

Results flagged for a closer look

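A mouse far from the others of its group was found in 6 of 148 groups of 4, by Dixon's ratio of the gap to the whole range. Chance alone flags about 1 in 20 groups, or 7.4 here. Among the members aged mouse 1 was far in 2 genes. It was the highest of the aged mice for Abcc3, at 29.4 CPM against 2.78 to 4.94 CPM (ratio 0.919), and the lowest for Abcb10, at 28.1 against 45.6 to 48.7 CPM (0.851). Young mouse 4 was the lowest of the young mice for Abcb8, at 49.9 against 52.4 to 52.6 CPM (0.914), and for Pex19, a peroxisome assembly factor, at 103 against 111 CPM in the other young mice (0.931). Of the marker lists, young mouse 2 was highest for the summed endothelium markers, at 426 against 394 to 398 CPM (0.885), and aged mouse 3 for the B and plasma cell markers, at 98 against 32.8 to 37.5 CPM (0.928).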

How the results depend on the processing

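The 5 members called and the 6 past the adjusted p became 9 and 14 with DESeq2 (873 genes called over the whole table, 6.26%), and 8 and 11 with library size only in place of TMM, under which the median over all genes was 0.14 on the log2 scale, not 0.03. With limma-voom 6 were called and 11 passed the adjusted p. With the replicate block 2 were called and 2 passed the adjusted p (Abca1 and Abcb1a), and Abcc4, Abcb1b and Abca3 were at adjusted p of 0.0506, 0.0507 and 0.0507. Whether the replicate numbers pair the mice is not stated by the labels and cannot be told from these values. Deviations of same-numbered mice correlated at 0.21, 0.04, 0.20 and -0.03. Aged mouse 4 did not correlate best with its own number, while aged mice 1, 2 and 3 did. The other settings gave 5 or 6 members in both counts. With each mouse left out in turn, 0 to 7 members were called and 0 to 10 passed the adjusted p, and the genes called over the whole table ranged from 8 to 733.

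Over 16 alternatives for each of the 39 members, 563 values kept their side of the threshold, 25 passed it only under the alternative and 36 no longer passed, and 0 values of a called member changed sign. The sign of Abca4, Abca14, Abcb10, Abcd3, Abcf2, Abcf3, Abcg2 and Abcg3, none of them called, changed under at least 1 alternative. The family median stayed between 0.16 and 0.40. Medians of subfamilies A (0.30 to 0.50), C (0.25 to 0.50) and D (0.09 to 0.38) stayed above 0, and those of B (-0.10 to 0.06), F (-0.16 to 0.03) and G (-0.12 to 0.28) crossed it. With 4 mice a group, members near the floor, such as Abcb4, and members with a wide spread among the aged mice, such as Abcc3, are known only coarsely. The p-values set the difference between the groups against the spread between mice within each group, for these 8 mice only.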
